A study of Mus musculus with 6 samples.

Results

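Macrophages are phagocytes of the innate immune system that live in fat tissue among the adipocytes and their precursors. They depend on signals through the receptor Csf1r, carry the surface protein F4/80 (Adgre1), digest what they take up in lysosomes rich in Ctss and Cd68, and are a main source of the complement protein C1q. Cultures grown from the stromal cells of fat can keep some of these cells, and their transcripts then appear beside those of the adipocytes. The 10 genes described here, Lyz2, Mpeg1, Ctss, Adgre1, Csf1r, Cd14, Cd68, C1qa, C1qb and C1qc, were chosen by symbol as macrophage markers, and all 10 were among the 35976 gene rows of the deposited table. Not all of them are exclusive to macrophages: Cd14, Cd68 and Ctss can also be made by adipocytes or fibroblasts.

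The 6 libraries of poly(A)-selected RNA came from primary adipocytes of mice with the genotype Ppargc1a(fl/fl), shared by every group, in which loxP sites flank the gene so that Cre can remove it. Cells received adenovirus encoding GFP or the recombinase Cre, followed by an siRNA, either the control or one against Rbm43, and were then differentiated. The sources used here do not give the age of the animals, the fat depot or the promoter of each virus, and name no sort of the cells. There are 3 groups of 2 libraries: control siRNA after GFP virus, Rbm43 siRNA after GFP virus, and Rbm43 siRNA after Cre virus. The libraries held 15775398 to 21961724 reads in genes. The design text calls them biological duplicates without naming separate animals, so p-values measure only the spread between these samples, which may be technical. The siRNA target Rbm43 had 185 and 224 normalized counts (reads divided by 1 size factor per library) in the control libraries and 32.5 to 53.8 in the 4 libraries with Rbm43 siRNA. Ppargc1a had 463 and 469 in the libraries labelled Cre virus, against 399 and 423 with GFP virus and Rbm43 siRNA, and a count over the whole gene does not check excision.

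As a sum, the macrophage markers made up a small part of every library that varied little, though single markers moved in opposite directions. Lyz2 alone held 31.2% to 38.0% of the sum. Together the 10 genes had 121 and 122 RPM (their reads relative to all reads in genes) with control siRNA, 131 and 112 with Rbm43 siRNA after GFP virus, and 127 and 129 in the libraries labelled Cre virus. The highest library was 1.18 times the lowest on the scale of summed normalized counts, and both of these extremes belonged to the same group, GFP virus with Rbm43 siRNA, with 2585 in replicate 1 and 2187 in replicate 2. Summed normalized counts per group were 2344 ± 7.51, 2386 ± 281 and 2459 ± 33.1 (SD, n = 2 each) in the order above. The groups with GFP virus overlapped, while both libraries labelled Cre virus (2435 and 2482) lay above both controls (2339 and 2349). The summed level over chosen genes was not tested. In bulk RNA, fewer macrophages and less RNA per macrophage cannot be told apart.

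Adgre1, an adhesion receptor of mature macrophages, varied least of the 10. Its normalized counts were 199.7 and 224 in the control libraries, 224 and 216 with Rbm43 siRNA after GFP virus, and 204 and 184 with Cre virus, a spread of 1.22 times from lowest to highest. C1qa had 106 and 101, then 115 and 103, then 82.2 and 101 in the same order. All 10 genes were detected in every library, the least abundant, Cd14, with 58 to 94 reads.

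**Figure D1:**
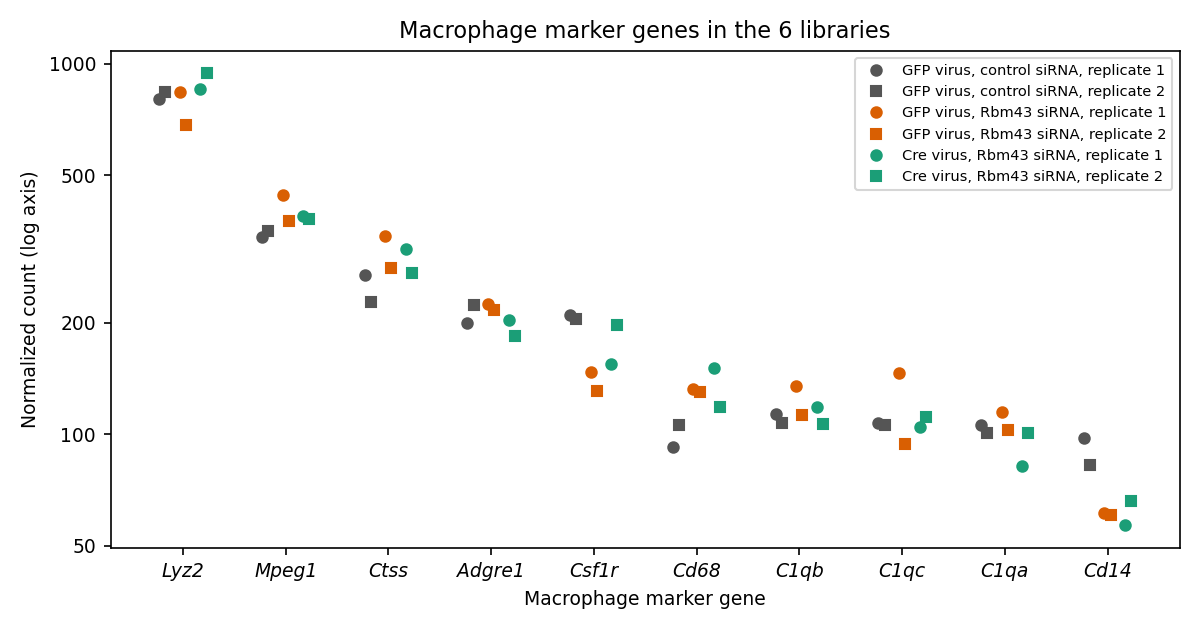
Normalized counts (log axis) of the 10 macrophage marker genes, ordered by mean, in each of the 6 libraries; colour marks the group and shape the replicate. Lyz2 lies highest, between 683 and 943, and Cd14 lowest, between 56.8 and 97.8; Csf1r and Cd14 lie highest in the control siRNA libraries, apart from both libraries of GFP virus with Rbm43 siRNA.

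Levels of different genes were compared per kilobase of exon, using exon lengths of the GENCODE M21 annotation, which is on the build of the files (mm10). Lyz2, the lysozyme of macrophages that cleaves bacterial cell walls, was highest with a mean of 629 normalized counts per kilobase over the 6 libraries. The protease Ctss followed with 210, then C1qb with 106, C1qa with 97.4, the lysosomal membrane glycoprotein Cd68 with 96.7 and the pore-forming protein Mpeg1 with 87.7. Adgre1 had 64.5, C1qc 57.8, Cd14 40.9 and Csf1r 30.1. Neighbours in this order had overlapping library values except Lyz2 and Ctss, Ctss and C1qb, and Mpeg1 and Adgre1. The order was reversed within at least 1 library for C1qa and Cd68, Cd68 and Mpeg1, Adgre1 and C1qc, and C1qc and Cd14. Among 14846 genes above 0 in every library with 1 annotated length, Lyz2 stood at percentile 91.2 of levels per kilobase, Ctss at percentile 75.0 and the other 8 markers between 33.0 and 59.1. Adipoq, which encodes the adipocyte hormone adiponectin, was 24.1 times higher per kilobase than Lyz2 and 503 times higher than Csf1r.

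Lyz2 (mm10 chromosome 10, 117277331 to 117282321, minus strand) lies beside its near-identical copy Lyz1, and reads could be split between them; Lyz1 had a normalized count of at most 2.91 in any library. The 3 C1q genes lie side by side on the minus strand of chromosome 4, C1qb at 136880129 to 136886187, C1qc at 136889804 to 136893065 and C1qa at 136895917 to 136898803. Ctss lies on chromosome 3 (95526786 to 95556403, plus strand), Cd68 on chromosome 11 (69664213 to 69666153, minus strand), Adgre1 on chromosome 17 (57358691 to 57483527, plus strand) and Mpeg1 on chromosome 19 (12460779 to 12465283, plus strand). An exon of Csf1r overlaps the neighbouring gene Hmgxb3 in GENCODE M21, and whether the counting used strand is not stated in the labels. Hmgxb3 itself had 528 and 519 normalized counts with control siRNA and 571 and 639 with Rbm43 siRNA and GFP virus, a log2 difference of 0.21 that missed the threshold (limma adjusted p = 0.0568).

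Promoter sequences were at hand for 6 members (RefSeq, build GRCm38.p6, 250 bases before the start of the gene). Macrophage genes are often bound by the ETS factor PU.1 (Spi1), whose sites are built around a purine-rich box, so the windows were searched on both strands for GAGGAA and for AGGAAGT, which can overlap. GAGGAA occurred before Ctss, Cd68, C1qb and C1qc, and in 23.3% of 32851 promoter windows of all genes. AGGAAGT occurred before Lyz2, C1qb and C1qc, and in 7.69% of all windows; neither was in the window of Mpeg1. A match is a description of the letters and was not tested as a site. The stretches around 1 match per gene are shown because Ctss was the only member with a promoter sequence that passed the test below, Lyz2 the most abundant, and Cd68, C1qb and C1qc complete the members with a match. Lines read 5′ to 3′ on the strand of the gene, with the match in capitals, and it is the reverse complement of the motif for Lyz2 (AGGAAGT) and C1qc (GAGGAA, overlapping its AGGAAGT).
Ctss, chr3:95526595-95526654, plus strand: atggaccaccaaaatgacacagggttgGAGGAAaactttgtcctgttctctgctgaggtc
Cd68, chr11:69666363-69666420, minus strand: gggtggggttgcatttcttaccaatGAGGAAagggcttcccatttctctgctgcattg
Lyz2, chr10:117282339-117282399, minus strand: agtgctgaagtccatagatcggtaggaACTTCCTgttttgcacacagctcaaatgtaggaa
C1qb, chr4:136886201-136886257, minus strand: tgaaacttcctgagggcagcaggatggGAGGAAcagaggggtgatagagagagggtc
C1qc, chr4:136893075-136893134, minus strand: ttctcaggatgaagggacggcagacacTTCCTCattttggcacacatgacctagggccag

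Rbm43 siRNA was first compared with control siRNA among cells given GFP virus. Csf1r and Cd14 fell and Ctss rose, while Lyz2, Mpeg1, Adgre1, Cd68 and the 3 C1q genes did not pass the test. Of the 10 markers tested, 1 rose and 2 fell at a limma adjusted p under 0.05, that is 3 of 10, where 23.2% of all 14211 genes tested were called, 13.5% higher and 9.76% lower. That is 1914 and 1387 genes, against 1676 and 1677 with total scaling. The markers' median log2 fold change was 0.10, against −0.01 over all genes tested, and 7 of the 10 differences were above 0. The library values of the 2 groups did not overlap for 5 markers (Csf1r, Cd14, Ctss, Cd68 and Mpeg1), a state shared by 58.5% of all genes tested.

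The receptor Csf1r binds the growth factors Csf1 and Il34, on which macrophages depend for survival. Its normalized counts were 210 and 204 with control siRNA and 148 and 131 with Rbm43 siRNA and GFP virus. Both libraries with Rbm43 siRNA lay below both controls, and the log2 fold change was −0.57 ± 0.13 (SE; limma adjusted p = 0.00299), about 0.671 of the control level. Cd14, the co-receptor that passes bacterial lipopolysaccharide to Tlr4, had 97.8 and 82.8 with control siRNA against 61.2 and 60.6, again without overlap. Its log2 fold change was −0.56 ± 0.18 (SE; limma adjusted p = 0.0298). The falls of the 2 receptors differed by less than their standard errors, and Cd14 had the larger one without control siRNA replicate 2 (−0.67 against −0.59) and without GFP virus, Rbm43 siRNA replicate 2 (−0.55 against −0.49). Adgre1 had a log2 difference of 0.06 with a 95% interval from −0.17 to 0.29, and its groups overlapped.

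Ctss, a cysteine protease that trims antigens and the invariant chain in the endosome, had 268 and 228 normalized counts with control siRNA and 344 and 281 with Rbm43 siRNA. The 2 groups lay apart by a small margin, and the log2 fold change was 0.33 ± 0.12 (SE; limma adjusted p = 0.0475). Cd68 had 92.6 and 106 against 132 and 130, a log2 difference of 0.40 (limma adjusted p = 0.0591). Mpeg1, which perforates engulfed bacteria, had 340 and 353 against 442 and 377, a log2 difference of 0.24 (limma adjusted p = 0.0694). The values of Cd68 and Mpeg1 were higher in both Rbm43 siRNA libraries but missed the threshold. Lyz2 had 803 and 837 against 838 and 683, and its groups overlapped (log2 difference −0.12, 95% interval −0.29 to 0.06).

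The complement component C1q is assembled from equal numbers of the A, B and C chains. Its 3 genes had similar counts, but per kilobase of exon C1qc had 57.8 against 106 for C1qb and 97.4 for C1qa. C1qb had 113 and 107 normalized counts with control siRNA and 135 and 113 with Rbm43 siRNA. C1qc had 107 and 106 against 147 and 94.2, and C1qa 106 and 101 against 115 and 103. In each of these genes replicate 1 of GFP virus with Rbm43 siRNA was the highest of the 6 libraries. The differences between groups were 0.16, 0.14 and 0.07 on the log2 scale, within the spread of the libraries, and the 95% intervals ran at most from −0.26 to 0.50.

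**Figure D2:**
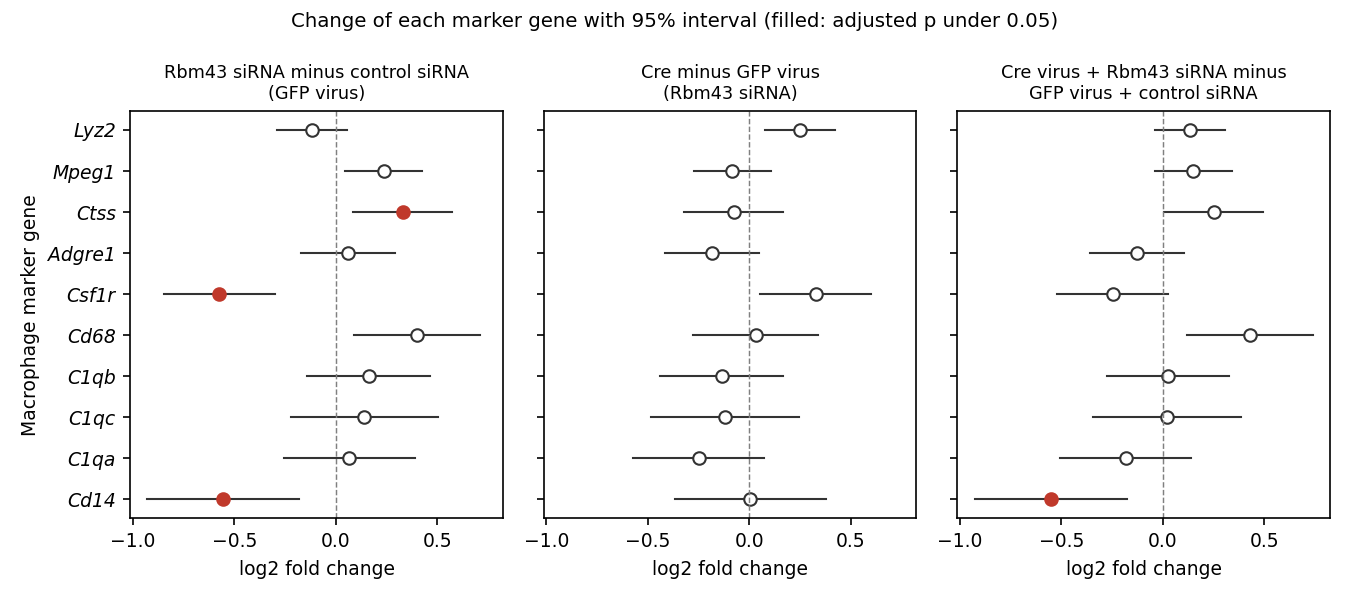
Log2 fold change of each marker gene (points) with its 95% interval (lines) in the 3 comparisons; filled points passed an adjusted p under 0.05. Csf1r, Cd14 and Ctss are filled in the left panel, no gene in the middle one and Cd14 alone in the right one.

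How firmly these calls stood differed between the genes. In the 12 other settings that kept all libraries, Csf1r passed in 11, Cd14 in 9 and Ctss in 6. Ctss missed the threshold with upper-quartile scaling, total scaling, only the 2 groups compared, no filter, no trend and DESeq2. Cd14 missed it with the last 3 of these. Csf1r passed in 17 of 18 other settings, with log2 fold changes between −0.66 and −0.49, and missed the threshold without the mean-variance trend (adjusted p = 0.0668). Cd14 passed in 12 of 18 (adjusted p from 0.023 to 0.181) and missed it without replicate 1 of the control siRNA group and without either replicate of GFP virus with Rbm43 siRNA. Ctss passed in 8 of 18 (adjusted p from 0.00633 to 0.423) and missed it without control siRNA replicate 2, without replicate 1 of GFP virus with Rbm43 siRNA, and without either Cre virus replicate. Other calls appeared when a library was left out: Lyz2 fell by 0.26 without GFP virus, Rbm43 siRNA replicate 1, Mpeg1 rose by 0.35 without replicate 2 of that group, and Cd68 rose by 0.49 without control siRNA replicate 2 (limma adjusted p = 0.0461, 0.0323 and 0.0347).

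The 2 libraries of GFP virus with Rbm43 siRNA differed from each other in the whole set. All 10 markers had higher normalized counts in replicate 1 than in replicate 2, with a median log2 difference of 0.20. The lowest was 0.01 for Cd14 (61.2 against 60.6), with 63 of 20284314 reads against 65 of 20907929. The order of Cd14 thus rests on the scaling. Over all genes tested, 52.5% were higher in replicate 1, with a median of 0.01. In the other groups 6 of 10 (control siRNA) and 5 of 10 (Cre virus) were higher in replicate 1, with median differences of 0.03 and −0.03. The mean over the 10 genes, each centred on its own mean on the log2 scale, was 0.12 in replicate 1 of GFP virus with Rbm43 siRNA and −0.09 in replicate 2. It lay between −0.02 and 0.01 in the other 4 libraries. The spread within this 1 group was wider than the whole range over the other 4 libraries.

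**Figure D3:**
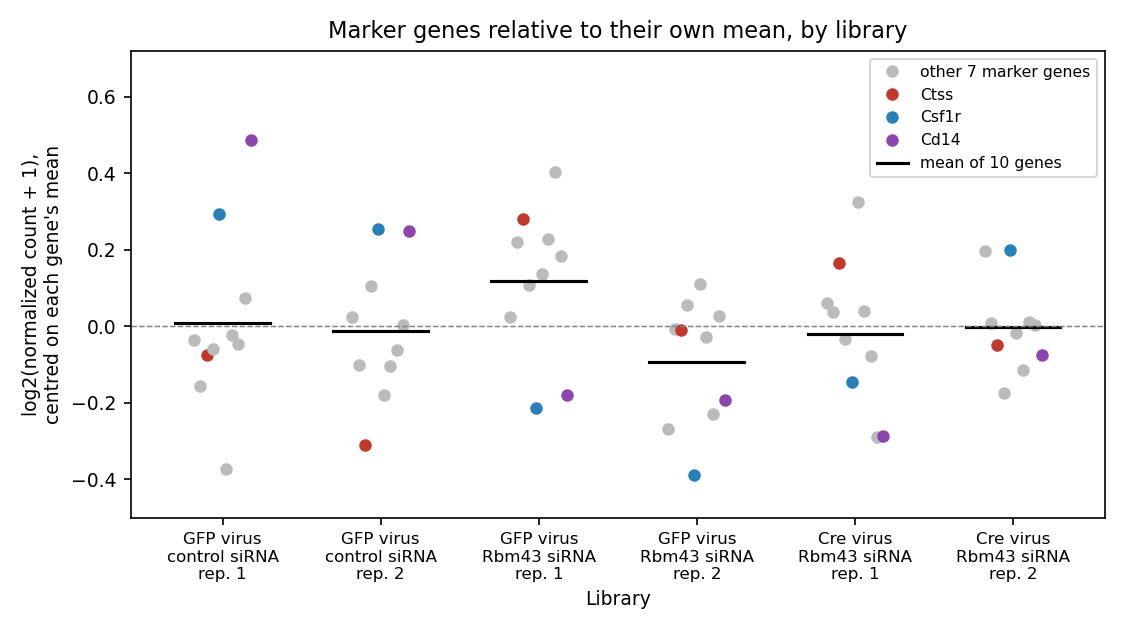
Log2(normalized count + 1) of each of the 10 marker genes, centred on the gene's own mean, in each library; Csf1r, Cd14 and Ctss are coloured and the bar is the mean of the 10 genes. The bar is highest (0.12) in replicate 1 and lowest (−0.09) in replicate 2 of GFP virus with Rbm43 siRNA, and Csf1r and Cd14 are above 0 in both control siRNA libraries.

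Ratios of 2 markers within a library do not depend on its scaling. The ratio of Ctss to Csf1r was 1.28 and 1.11 with control siRNA, 2.33 and 2.15 with Rbm43 siRNA after GFP virus, and 2.05 and 1.39 with Cre virus. The control libraries had the lowest ratios of the 6. Ctss and Csf1r were called in opposite directions from these same values, so ratios with them add no support for those calls. Csf1r to Adgre1 was 1.05 and 0.913, then 0.658 and 0.603, then 0.760 and 1.07, and here the libraries labelled Cre virus spanned from near the Rbm43 siRNA value to the control value. Over the 45 pairs of markers the correlation across the 6 libraries had a median of 0.12, from −0.97 (Cd14 and Cd68) to 0.86 (Ctss and C1qb), given as a description because the libraries share group and scaling.

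Likeness of pattern was measured as Pearson's r over the 6 libraries between a gene and the centred mean of the 10 markers, for 8561 genes. The most alike were Ppp1r3e (r = 0.992), 3632451O06Rik, Rfng, Galk1, Id1, Car9, Pitx1, Zfp213, Tuba4a and Hotairm1 (r = 0.938). Ppp1r3e had 126 and 118 normalized counts with control siRNA, 143 and 106 with GFP virus and Rbm43 siRNA, and 117 and 121 with Cre virus, and so repeated the high replicate 1 and low replicate 2. None of the 10 was in a macrophage or leukocyte list, but those lists hold few of the 8561 genes, so their absence says little. These correlations rest on 6 libraries and on a pattern whose extremes are 2 of them, and carry no p.

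The second comparison asks what Cre virus changed in cells with Rbm43 siRNA. No macrophage marker passed the test: 0 of 10 were called by limma (2 at an unadjusted p under 0.05), 0 of 10 by edgeR, and 0 by DESeq2, which gave no adjusted p for 6 of them. Of all genes tested limma called 8.5%, 2.62% higher and 5.88% lower, which is 372 and 836 genes, against 565 and 734 with total scaling. The median log2 fold change of the markers was −0.08, against 0.00 over all genes, and 4 markers had groups that did not overlap, against 53.7% of all genes. This comparison shares the libraries of GFP virus with Rbm43 siRNA with the first one. Lyz2 had 858 and 943 normalized counts with Cre virus against 838 and 683, a log2 difference of 0.25 ± 0.08 (SE; limma adjusted p = 0.0730). Lyz2 passed the threshold without either control siRNA library, where the fold change is the same, and rose by 0.40 without GFP virus, Rbm43 siRNA replicate 1 (limma adjusted p = 0.0125, 0.0121 and 0.00966). It also passed with only the 2 groups compared (adjusted p = 0.0133) and with total scaling (adjusted p = 0.0419), 6 of 18 other settings in all, with adjusted p from 0.00966 to 0.666.

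Csf1r had 155 and 197 normalized counts with Cre virus, above both libraries of GFP virus with Rbm43 siRNA, and the log2 difference of 0.33 had a 95% interval from 0.05 to 0.60 (limma adjusted p = 0.144). Cd14 had 56.8 and 65.9 against 61.2 and 60.6, a log2 difference of 0.01 with a 95% interval from −0.37 to 0.38. Ctss had 317 and 273, Mpeg1 389 and 381 and Cd68 151 and 119, all overlapping the libraries with GFP virus. C1qb had 118 and 106, C1qc 105 and 112 and C1qa 82.2 and 101; their log2 differences were −0.14, −0.12 and −0.25. Over the 10 markers the 95% intervals in this comparison ran at most from −0.57 to 0.60, which is the size of change these libraries leave unresolved.

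The last comparison changed both treatments at once, Cre virus plus Rbm43 siRNA minus the control libraries, and shares libraries with each of the others. Cd14 was the only marker called, 1 of 10, and it was lower; of all genes tested 14.7% were called, 8.47% higher and 6.28% lower. It was lower in both libraries labelled Cre virus than in both controls, with a log2 fold change of −0.55 ± 0.18 (SE; limma adjusted p = 0.0445). The call was kept in 9 of 18 other settings, with adjusted p from 0.0355 to 0.3, and was lost without each library in turn except control siRNA replicate 2. Csf1r had a log2 difference of −0.25 (95% interval −0.52 to 0.02) and Ctss one of 0.25 (95% interval 0.01 to 0.49), and neither passed; Ctss passed without control siRNA replicate 1, at 0.37 (limma adjusted p = 0.0322). Cd68 had a difference of 0.43 (limma adjusted p = 0.0581) and was called without control siRNA replicate 2, at 0.53 (limma adjusted p = 0.0331). The median of the 10 markers was 0.02, against 0.00 over all genes, and 7 had groups that did not overlap, against 54.6% of all genes.

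Counts in this and the later lists stand beside the shares of all genes tested. These were 13.5% higher and 9.76% lower in the first comparison, 2.62% and 5.88% in the second, and 8.47% and 6.28% in the last. Among 20 other genes shared by most leukocytes or myeloid cells, 19 were tested. In the first comparison 5 fell and 0 rose, with a median log2 fold change of −0.38. Laptm5, a lysosomal membrane protein of blood cells, had 128 and 128 normalized counts with control siRNA and 85.5 and 76.5 with Rbm43 siRNA after GFP virus, and fell by 0.65 (limma adjusted p = 0.00333). The integrin chain Itgam fell by 0.68 from 87.4 and 73.0 to 48.6 and 50.4 (limma adjusted p = 0.0250). The actin-bundling protein Lcp1 fell by 0.25, and Coro1a and Was, regulators of the actin skeleton with at most 35.3 normalized counts, also fell. The phosphatase Ptprc (CD45), which marks all leukocytes, had 80.1 and 106 against 88.4 and 66.2, with overlap, and the adaptor Tyrobp 77.0 and 59.6 against 72.8 and 57.8.

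The count of 5 leukocyte genes that fell depended on single libraries. It was 4 by edgeR and 1 by DESeq2, 3 without control siRNA replicate 1, 2 (with 1 that rose) without control siRNA replicate 2, 2 without replicate 1 and 1 without replicate 2 of GFP virus with Rbm43 siRNA, and 2 without either Cre virus library. In the second comparison 1 of the 19 rose (Cd53, a leukocyte tetraspanin, by 0.43, limma adjusted p = 0.0385) and 0 fell, with a median of 0.21, and 0 were called without GFP virus, Rbm43 siRNA replicate 2 or without either Cre virus library. In the last comparison 0 rose and 1 fell (Laptm5; limma adjusted p = 0.0484), with a median of −0.26, and it was not called when any 1 of the 6 libraries was left out. In that comparison 1 gene of the list rose by edgeR, without control siRNA replicate 1 and without either library of GFP virus with Rbm43 siRNA. Summed over the 20 genes, the libraries had 85.6 and 89.3 RPM with control siRNA, 74.5 and 67.8 with Rbm43 siRNA after GFP virus, and 80.3 and 84.7 with Cre virus.

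Of 20 genes of tissue-resident macrophages, 12 were tested. In the first comparison 1 rose and 0 fell, with a median of 0.14. The riser, C3ar1, the receptor for complement fragment C3a, had 146 and 179 normalized counts with control siRNA and 229 and 223 with Rbm43 siRNA and GFP virus, a log2 fold change of 0.48 (limma adjusted p = 0.00486), and it was called when any 1 library was left out. The mannose receptor Mrc1 had 79.1 and 69.4 against 107 and 78.4, and Siglec1, a sialic acid receptor, 78.0 and 63.3 against 52.4 and 56.9; neither passed. Timd4 was at 0 in 5 of 6 libraries, and Cd163, Vsig4 and Lyve1 had at most 8.78 normalized counts. In the second comparison 0 of 12 were called by limma, edgeR or DESeq2 (1 at an unadjusted p under 0.05 by limma), with a median of −0.05. In the last comparison 1 rose, C3ar1 with 226 and 221, by 0.47 (limma adjusted p = 0.00960; median of the list 0.12), and 0 were called without control siRNA replicate 1 or without either Cre virus library.

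Genes of lipid-associated macrophages, several of which are also made by adipocytes and fibroblasts, gave 11 tested of 12, with 6 that rose and 3 that fell in the first comparison (median 0.29). The 3 that fell became 1 without replicate 2 of GFP virus with Rbm43 siRNA and by DESeq2, with 5 that rose in each, and 2 by edgeR and without each other library except control siRNA replicate 1. The elastase Mmp12 had 88.4 and 88.9 normalized counts with control siRNA, 165 and 158 with Rbm43 siRNA after GFP virus, and 270 and 227 with Cre virus. The 3 groups did not overlap, and Mmp12 rose by 0.86 in the first comparison and by 0.62 in the second (limma adjusted p = 4.77e-05 and 0.00355). The glycoprotein Gpnmb had 289 and 301, then 435 and 454, then 514 and 466, and rose by 0.59 in the first comparison (limma adjusted p = 3.29e-05). The acid lipase Lipa rose by 0.44 and the tetraspanin Cd9 fell by 0.48. Trem2, the lipid receptor that defines these cells, had 53.1 and 49.9, then 65.1 and 64.4, then 52.9 and 49.2, and did not pass in any comparison. In the second comparison 2 rose (Mmp12 and Spp1) and 1 fell (Lipa), with a median of −0.03. That count of 3 became 0 without GFP virus, Rbm43 siRNA replicate 2, 1 without either Cre virus library, and 3 that rose and 2 that fell without either control siRNA library and by edgeR, against 0 and 2 by DESeq2. In the last comparison 6 rose and 2 fell (median 0.20), against 5 and 1 by DESeq2, 4 and 2 without control siRNA replicate 2, 2 and 0 without Cre virus replicate 1 and 2 and 1 without Cre virus replicate 2.

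The genes around Csf1r include its ligands Csf1 and Il34 and signalling partners, and 7 of 9 were tested. In the first comparison 0 were called by limma, edgeR or DESeq2, with 3 at an unadjusted p under 0.05 by limma and a median of −0.32; 1 fell without control siRNA replicate 1 and without either library of GFP virus with Rbm43 siRNA. Il34 had 46.8 and 85.2 normalized counts with control siRNA and 31.1 and 46.6 with Rbm43 siRNA and GFP virus (limma adjusted p = 0.0630). Csf1 was abundant, with 13365 and 13275 normalized counts, then 12985 and 11716, then 15055 and 15159 with Cre virus. It was highest in both Cre virus libraries and rose by 0.29 in the second comparison and by 0.18 in the last (limma adjusted p = 8.45e-04 and 0.0190), the only gene of the list called in either with all libraries; 1 other gene fell in the last without control siRNA replicate 1, and 0 genes of the list were called in either comparison without 1 of the Cre virus libraries.

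Of the partners of Cd14 in lipopolysaccharide sensing, 13 of 14 were tested, and 3 fell and 0 rose in the first comparison (median −0.11). The receptor Tlr4 had 616 and 697 normalized counts against 535 and 585, and fell by 0.23 (limma adjusted p = 0.0425). Irak3, an inhibitor of the pathway, fell by 0.31 and the adaptor Tirap by 0.29. The count was 0 by DESeq2 and without replicate 1 of GFP virus with Rbm43 siRNA, 1 without replicate 2 of that group, without control siRNA replicate 2 and without either Cre virus library, and 2 without control siRNA replicate 1. No gene of the list passed in the second or last comparison by limma, edgeR or DESeq2 (0 and 3 at an unadjusted p under 0.05 by limma), but in the last 1 rose and 2 fell without control siRNA replicate 1.

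C1q acts with the proteases C1r and C1s at the start of the classical complement pathway. Of 17 other complement genes, 15 were tested, and 3 rose and 5 fell in the first comparison (median −0.01). These became 5 and 5 without control siRNA replicate 1, 4 and 4 without control siRNA replicate 2, 2 and 5 without replicate 1 and 3 and 3 without replicate 2 of GFP virus with Rbm43 siRNA, 3 and 4 without replicate 1 and 3 and 3 without replicate 2 of Cre virus, and 2 and 4 by DESeq2. C3, the central component, had 3721 and 3851 normalized counts with control siRNA and 2592 and 2455 with Rbm43 siRNA after GFP virus, and fell by 0.59 (limma adjusted p = 4.08e-07). Cfb, a protease of the alternative pathway, rose by 0.34 (limma adjusted p = 2.06e-04), and Cfd, a protease made by adipocytes, fell by 0.38. C1ra and C1s1, which encode those proteases, each fell by 0.22 (limma adjusted p = 0.0205 and 0.00212). The second comparison had 0 that rose and 1 that fell (Cd59a; median −0.01), and 0 fell by DESeq2, without either Cre virus library or either library of GFP virus with Rbm43 siRNA. There 1 rose by edgeR, without either control siRNA library and without GFP virus, Rbm43 siRNA replicate 1. The last had 3 that rose and 5 that fell (median −0.07), against 2 and 2 without Cre virus replicate 1 and 3 and 3 without Cre virus replicate 2.

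Further lists touch the markers' functions. Of 9 myeloid transcription factors tested of 10, 1 rose (Nr1h3, by 0.60) and 2 fell (Runx1, by 0.45, and Irf5, by 0.58) in the first comparison (median −0.05). Of the list, 1 rose and 1 fell by DESeq2, without control siRNA replicate 2 and without replicate 2 of GFP virus with Rbm43 siRNA. Spi1 (PU.1) had 33.3 and 37.7 normalized counts with control siRNA, 22.3 and 21.5 with Rbm43 siRNA after GFP virus, and 33.3 and 35.1 with Cre virus; its differences of −0.67 and 0.62 in the first and second comparisons missed the threshold (limma adjusted p = 0.0660 and 0.160). Of 19 genes of lysosomes and cathepsins, which most cells express, 1 rose (Cst3) and 2 fell (Ctsk and Ctsd) in the first comparison (median −0.07), against 1 and 4 without control siRNA replicate 2 and 0 and 2 without GFP virus, Rbm43 siRNA replicate 1. The count was 1 and 1 without either Cre virus library, without control siRNA replicate 1 and without replicate 2 of GFP virus with Rbm43 siRNA. Of 13 macrophage cytokine genes tested of 20, 0 rose and 2 fell: Il1rn, the antagonist of interleukin 1, had 665 and 581 against 367 and 361 (a fall of 0.77), and Cx3cl1 fell by 0.60 (median of the list 0.03). The cytokine list had 1 that rose and 3 that fell without control siRNA replicate 1, 0 and 3 without replicate 1 and 1 and 1 without replicate 2 of GFP virus with Rbm43 siRNA.

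Markers of other cells were set beside these 10 macrophage markers, though a sum depends on which genes a list holds. Summed per kilobase, the 10 macrophage markers had 1291 to 1537 normalized counts per library, 14 adipocyte genes 86276 to 121571, 14 fibroblast and preadipocyte genes 96722 to 107057, 11 mural cell genes 25094 to 34943 and 12 endothelial genes 194 to 248. Markers of the labelled cell type were abundant, with Adipoq at 18219 to 23077 and the lipid droplet protein Plin1 at 7442 to 9654 normalized counts, beside Pdgfra, a marker of fibroblasts and adipocyte precursors, at 6579 to 6977. Lymphocyte and granulocyte markers were nearly absent: the T cell gene Cd3e had at most 1.04 normalized counts, the natural killer cell gene Ncr1 was at 0 in all libraries and S100a8 had at most 8.81. Of the 16 monocyte and dendritic cell genes, Flt3 and Xcr1 were at 0 in all libraries, and 4 were abundant enough to be tested. That list summed to 180 to 216 RPM per library, against 112 to 131 for the 10 macrophage markers, but 6 to 8 of its 16 genes were at 0 in each library. Its sum rests on the 4 tested genes, among them Plac8, which other cells also make, and does not measure monocytes or dendritic cells. In the first comparison 10 of the 14 adipocyte genes rose and 2 fell (median 0.34), in the second 0 rose and 8 fell (median −0.26) and in the last 5 rose and 4 fell (median 0.06). Without Cre virus replicate 1 the second comparison had 4 that fell, without replicate 2 it had 5, and the last had 1 that rose and 3 that fell without replicate 1 and 3 and 3 without replicate 2. The last had 8 and 4 without control siRNA replicate 1, and the second 11 that fell without either control siRNA library. The part of this shift in the marker values was not tested.

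**Figure D4:**
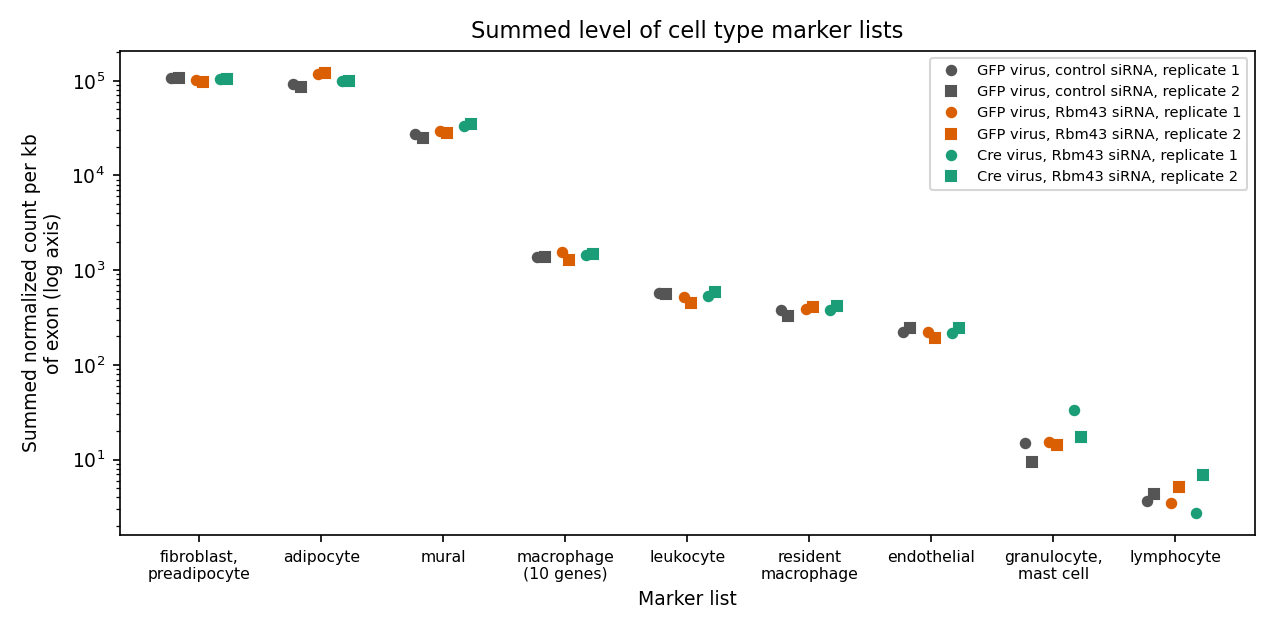
Summed normalized counts per kilobase (log axis) of the marker lists shown, in each of the 6 libraries, coloured by group. Not drawn are the lipid-associated macrophage list (8238 to 9657) and the monocyte and dendritic cell list (2019 to 2467). The second of these had 6 to 8 of its 16 genes at 0 in each library. The macrophage markers lie between 1291 and 1537, below the adipocyte, fibroblast and mural lists and above the endothelial, granulocyte and lymphocyte lists.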

How the data were processed

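Poly(A) RNA of 6 libraries was sequenced with a stranded kit, per the labels' protocols. Per the submitters' processing notes, the mm10 build, STAR 2.7.8, fastp 0.23.2 and DESeq2 2.11.40.7 were used; how genes were counted, and with which strand setting, is not stated there. The authors deposited a normalized signal per gene, reads divided by 1 size factor per library as the values show. Whole reads were recovered for 100% of values (within 0.01 read). Of 35976 rows, 13032 were at 0 everywhere, and 14211 entered the tests because 2 or more libraries reached a normalized count of 10. Values were taken as log2(normalized count + 1) and tested with limma 3.58.1 under R 4.3.3 and its mean-variance trend. This scale understates changes of low genes. All 3 groups entered 1 fit with 3 residual degrees of freedom, with Benjamini-Hochberg adjustment over all genes at 0.05. Alternatives were other pseudocounts, filters and scalings, a replicate block, only the 2 groups compared, no trend, edgeR 4.0.16 and DESeq2 1.42.0 on recovered reads, and leaving out each library. The procedure was tested on simulated data with a fixed spread. It was required to find only changes larger than those of the markers and to call few unchanged genes. That test does not show how well changes of the markers' size are found. Groups and replicate numbers came from the sample titles. The members and the 16 other lists were chosen with earlier results of these data known. All 10 members are named, the up to 4 genes of each list with the smallest p, and defining markers; other names were added after their values were seen. A few genes of the lists are not reported here by name.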

Additional observations from a re-analysis of the deposited data

How the results depend on the processing

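Of 540 combinations of a marker's log2 fold change and an alternative setting, 488 kept direction and side of the threshold, 26 lost and 12 gained a call, and 14 changed sign, all when a library was left out. Where DESeq2 gave no adjusted p, as for some markers with Cre virus, a value entered the 488 by its direction alone. Over the left-out libraries, the values that changed sign ranged for Rbm43 siRNA from −0.264 to 0.0312 (Lyz2), −0.0235 to 0.141 (Adgre1), −0.0129 to 0.145 (C1qa) and −0.18 to 0.46 (C1qc). For Cre virus they ranged from −0.199 to 0.0303 (Mpeg1), −0.223 to 0.0678 (Ctss), −0.0997 to 0.112 (Cd14), −0.141 to 0.203 (Cd68) and −0.44 to 0.20 (C1qc). For both treatments they ranged from −0.0519 to 0.10 (C1qb) and −0.0242 to 0.066 (C1qc).

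For Rbm43 siRNA, 3 markers were called, against 1 with no filter, 0 without the mean-variance trend (3 at an unadjusted p under 0.05), 1 by DESeq2 and 2 to 3 with a library left out. For Cre virus, 0 were called, against 1 (Lyz2) with total scaling, with the replicate block and with only the 2 groups compared, and 0 to 1 with a library left out. For both treatments, 1 was called, against 0 with no filter, with only the 2 groups compared, without the trend and by DESeq2, 2 (Cd14 and Cd68) with the replicate block, and 0 to 2 with a library left out. Over all genes, Rbm43 siRNA gave 3301 calls, against 1304 without the trend, 2035 by DESeq2 and 2101 to 3634 with a library left out. Cre virus gave 1208, against 609 with no filter, 2070 with only the 2 groups compared, 0 without the trend (2355 at an unadjusted p under 0.05) and 310 to 2067 with a library left out. Both treatments gave 2096, against 1251 with no filter, 433 without the trend, 1220 by DESeq2 and 765 to 2647 with a library left out. The cause of these changes was not tested, except that fewer libraries or groups entered some fits by construction.

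Libraries with the same replicate number did not deviate together over all genes tested (correlations 0.02, −0.04 and −0.04). What else than a number they share was not tested. The replicate block gave 3412, 1304 and 2214 calls over all genes. Counts of the other lists with a library left out were added after seeing the data. With 58 to 94 reads, Cd14 was the marker most limited by depth, and 2 libraries a group limit all of them.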

Other observations

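Part of the mural cell list, which holds markers of pericytes and smooth muscle, rose under each treatment. Of 11 tested, 4 rose and 1 fell with Rbm43 siRNA (median 0.15), 5 rose and 0 fell with Cre virus (median 0.23) and 7 rose and 1 fell with both (median 0.31). Myh11, Acta2 and Cnn1 rose in each comparison. The gene that fell with Rbm43 siRNA and with both treatments was Pdgfrb, so the list did not move as a whole. Whether the number of mural cells differed was not tested. Over all genes tested, 13.5%, 2.62% and 8.47% rose in the same order. The smooth muscle myosin Myh11 had 1423 to 1516 normalized counts in the control libraries and 2231 to 2722 in the other 4. With Cre virus the count of 5 was 2 without Cre virus replicate 1, 0 without Cre virus replicate 2 and 1 without GFP virus, Rbm43 siRNA replicate 2.

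Of 13 fibroblast and preadipocyte genes tested of 14, 0 rose and 5 fell with Rbm43 siRNA (median −0.08), 3 of these being Mfap5, Fbn1 and Col1a2; the count was 3 without either Cre virus library. With Cre virus 0 were called by limma (4 at an unadjusted p under 0.05) and 1 rose by edgeR and by DESeq2 and 2 without either control siRNA library, and with both treatments 3 fell (median −0.12), against 0 and 1 without Cre virus replicate 1 and 2, 1 without control siRNA replicate 2, and 1 that rose and 5 that fell without control siRNA replicate 1. Of 11 endothelial genes tested of 12, Eng fell with Rbm43 siRNA and Kdr rose with both treatments, by 0.61 (limma adjusted p = 0.00400). No endothelial gene fell by DESeq2, without control siRNA replicate 2, without GFP virus, Rbm43 siRNA replicate 2 or without either Cre virus library, and none rose with both treatments by DESeq2 or without Cre virus replicate 2, against 2 without control siRNA replicate 1. With Cre virus 0 endothelial genes were called by limma (2 at an unadjusted p under 0.05) or DESeq2, and 1 rose by edgeR and without either control siRNA library. Of 4 monocyte and dendritic cell genes tested of 16, Plac8, which other cells also make, rose with both treatments, by 0.22 (limma adjusted p = 0.0121), and was not called without Cre virus replicate 2. With Rbm43 siRNA 1 gene of that list rose without control siRNA replicate 1 and without GFP virus, Rbm43 siRNA replicate 2. The 1 lymphocyte gene tested, Il7r, did not pass in any comparison by limma (0 at an unadjusted p under 0.05), edgeR or DESeq2. Of the granulocyte and mast cell list 1 gene was tested, Kit, with 11.7 and 9.33 normalized counts after GFP virus with Rbm43 siRNA and 19.6 and 28.1 with Cre virus. The difference of 1.10 missed the threshold (limma adjusted p = 0.0671), and Kit was called higher by edgeR and without either control siRNA library.

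Under Cre virus, 1 of 9 myeloid transcription factors fell (Nr1h3; median 0.11), 1 of 19 lysosomal genes rose (Ctsl; median 0.06) and 1 of 13 cytokine genes rose (Nos2; median 0.15). Each of these 3 lists had 0 calls without either Cre virus library or without GFP virus, Rbm43 siRNA replicate 2. Without either control siRNA library the counts were larger, with 1 transcription factor that rose and 1 that fell, 2 lysosomal genes that rose and 2 that fell, and 3 cytokine genes that rose. The cytokine count was 0 by DESeq2 and 2 without replicate 1 of GFP virus with Rbm43 siRNA. With both treatments, 2 transcription factors rose and 1 fell (median −0.05), 1 lysosomal gene fell (Ctsd; median 0.00) and 3 cytokine genes rose and 3 fell (median 0.19). Without Cre virus replicate 1 and 2 in turn, 0 transcription factors rose and 1 fell, and the cytokine list had 1 that rose and 1 that fell, then 0 and 2. By DESeq2, 0 transcription factors rose and 1 fell, and 0 cytokine genes rose and 2 fell. Of the transcription factors 1 rose and 1 fell without either control siRNA library and without GFP virus, Rbm43 siRNA replicate 2. The cytokine list had 3 and 2 without control siRNA replicate 1 and 2 and 2 without control siRNA replicate 2, and 1 lysosomal gene rose without control siRNA replicate 1.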
